A study of Homo sapiens with 6 samples.

Results

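RNA from HCT116 cells that received either of 2 guides against MUC3A was compared, as 1 pooled knockout side of 4 libraries, with RNA from 2 control libraries. The deposited count tables of both guides were joined on gene symbol, and the 12429 genes with at least 60 reads summed over the 6 libraries were taken from the 15284 genes that the tables share. The sum runs over all libraries, so the choice did not use the contrast. At the edge of this rule stood 19 genes with 60 reads, with a median pooled log2 fold change of −0.13, and 16 genes with 59 reads were left out.

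HCT116 is an established human colorectal carcinoma cell line. The groups were control cells (WT), which the labels call wild type and also negative control, and the MUC3A knockout lines KO1 and KO2, each made with its own guide RNA in lentiCRISPR v2, a lentivirus that carries Cas9. Virus was used at a multiplicity of infection of 10 and infected cells were kept in puromycin (2 µg/mL) during a selection of 72 h. The protocol describes a scrambled control virus, and whether the WT cells had received it was not settled here. The labels do not say whether a knockout line was a single clone. Each group had 1 library whose name starts with HCT and 1 whose name starts with HCT116, and libraries that share a prefix are called a set (HCT or HCT116) below. The labels do not tie the libraries of a group to different cultures. The p-values therefore cover the spread among these libraries alone, and that spread may be technical.

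The product of MUC3A is a mucin anchored in the apical membrane of gut epithelial cells, with a long glycosylated extracellular part that covers the cell surface. Cas9 cuts DNA where its guide pairs next to an NGG motif, and imprecise repair of the cut can shift the reading frame of the transcript. The study set MUC3A beside PI3K, Akt and mTOR, a kinase cascade downstream of growth factor receptors such as EGFR that drives protein synthesis and growth. A pooled comparison of both guides gives weight to genes that moved the same way with each.

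The guides decide what the pooled knockout side is, and both lie in exon 2 of MUC3A, inside the coding sequence, in annotated transcripts of 12 and 11 exons. They are printed 5′ to 3′ with the 3 genomic bases of the NGG motif that follows each guide in capitals.
KO1 guide: gaaggcaaacttggacgtcgGGG
KO2 guide: ttctccacactccagagaccTGG
By match to GRCh38 the KO1 guide covers chr7:100952090-100952109 on the minus strand and the KO2 guide covers chr7:100951917-100951936 on the plus strand. The stretch chr7:100951907-100952119, on the plus strand, holds both target sites, shown in capitals.
MUC3A exon 2: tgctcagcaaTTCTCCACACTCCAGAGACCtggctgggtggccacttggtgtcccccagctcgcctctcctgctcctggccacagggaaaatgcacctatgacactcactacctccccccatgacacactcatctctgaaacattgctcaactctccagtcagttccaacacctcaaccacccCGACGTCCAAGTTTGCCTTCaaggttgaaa
Taking the cut at 3 bases from the motif, the cuts lie 159 bases apart in the same exon.

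MUC3A itself was read first. Its level in CPM, read counts scaled to library size, was 52.3 in the HCT library and 25.7 in the HCT116 library of WT. It was 52.5 and 28.5 CPM in KO1, and 29.98 and 24.5 CPM in KO2. The groups overlapped, and the HCT library of KO2 was the one that stood far from the WT library of its set. The pooled log2 fold change was −0.16 ± 0.24 (SE, n = 4 against 2 libraries), with an unadjusted p of 0.520 by edgeR's quasi-likelihood test. Within the HCT set alone it was −0.40. The sign turned over the HCT116 set alone (0.04), and also when the HCT library was left out of WT (0.08) or out of KO2 (0.04). A frameshift can leave transcript levels as they were, so the level is no check of the edit.

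Totals ran from 13638724 to 17829599 counts per library, where 3 reads correspond to 0.157 to 0.242 CPM. Of 12 epithelial and colon carcinoma markers, 7 were above 1 CPM in all 6 libraries, among them EPCAM (217 to 296 CPM), KRT8 and CDX2. Their sum ran from 6586 to 8922 CPM in WT and from 5476 to 15300 CPM in the knockout libraries. KRT8 alone had 3139 and 4417 CPM in WT, 4253 and 8114 CPM with the KO1 guide and 2612 and 4673 CPM with the KO2 guide. CDX1, VIL1 and LGR5 stayed under 1 CPM, and ASCL2 and CEACAM5 were not in the joined table. Summed over their listed members, markers of HEK293T, the line in which virus is packaged, ran from 79.01 to 135.8 CPM in WT and 65.1 to 128.1 CPM in the knockout libraries. Most of that sum was HOXA9 (43.9 to 95.0 CPM). PAX2, PAX8 and HOXC10 were also above 1 CPM in every library, and LHX1, SALL1, NEFL and HOXD10 reached at most 0.344 CPM. Fibroblast markers ran from 43.96 to 65.44 CPM and 35.29 to 67.32 CPM, nearly all of it COL1A1. Leukocyte markers ran from 10.21 to 10.81 CPM and 7.73 to 23.1 CPM, with PTPRC under 0.1 CPM in every library and CD68 at 18.9 and 17.5 CPM in KO1. Their part in the results was not tested.

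No gene passed the pooled edgeR test. With the 4 knockout libraries as 1 side and the set as a block, edgeR called 0 of 12429 genes at an adjusted p of 0.05, which is 0%, and 395 (3.18%) had an unadjusted p under 0.05, 192 higher (1.54%) and 203 lower (1.63%). In the same design limma-voom called 0 genes and DESeq2 called 20 (0.161%), 8 higher and 12 lower. The pooled fit counts the difference between the guides as spread, and that difference was wide. KO2 differed from KO1, as a direct contrast of the guides in a fit of all 6 libraries that share 1 estimate of the spread, in 1252 genes (10.1%), 551 higher (4.43%) and 701 lower (5.64%). Over all tested genes the median absolute log2 fold change was 0.22 between the guides and 0.13 between the pooled side and WT. These measures are unlike, since the pooled side averages 4 libraries over both guides, which by itself makes its value smaller.

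A second contrast gave each guide its own mean and compared the average of both with WT. It called 102 genes by edgeR (0.821%), 47 higher (0.378%) and 55 lower (0.443%), and "rose" and "fell" refer to this contrast below. Both guides lay on the side of the average for 84 of the 102 (82.4%), and in 42 (41.2%) all 4 knockout libraries lay beyond both WT libraries, against 3.7% of all tested genes (2.04% above and 1.66% below). The genes were called from these same libraries, which raises both shares by itself, so the shares are a description and no support for the calls. KO2 differed from KO1 in 65 of the 102, with KO2 farther from WT in 47 and KO1 farther in 18. In the other 37 genes, 18 higher and 19 lower, the guides were not told apart by this test. Without the set as a block this contrast called 0 genes, with 124 at an unadjusted p under 0.05, and KO2 against KO1 called 0, with 504. Of the 20 genes of the pooled DESeq2 fit, 19 were among the 37, and OAS1 was the one with a guide difference.

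**Figure D1:**
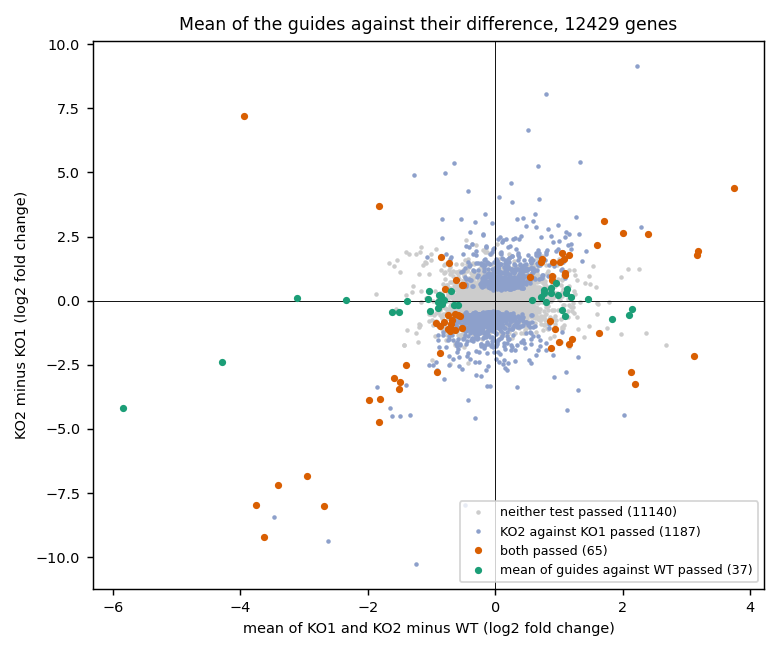
Each point is 1 of the 12429 tested genes, with the fitted mean of KO1 and KO2 minus WT on the x axis and fitted KO2 minus KO1 on the y axis, both as log2 fold changes. The 37 genes in green passed the mean test alone, the 65 in orange passed both tests, and the 1187 in blue differed between the guides without passing the mean test. Points beyond about 5 log2 units include genes with few or 0 reads in a group, where the fitted value depends on the prior count. SEMA3A, at 5.25 on the y axis, is not of that kind, with 98 reads in KO1.

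Genes that were lower with both guides included 2 ligands of the EGF receptor, 2 regulators of receptor signalling and a microtubule-binding protein. Of the 37 genes without a called guide difference, 7 were called again when each of the 6 libraries was left out in turn: NAV3, RGS2, AREG and RNF43 lower, and KRT15, RGS5 and ADIRF higher. NAV3, a neuron navigator that binds microtubule ends, had 9.88 and 8.39 CPM in WT. It had 1.86 and 1.70 CPM in KO1 and 1.83 and 1.79 CPM in KO2. The 4 knockout libraries lay close together and far under both WT libraries, and the log2 fold change was −2.34 ± 0.24 (SE, edgeR adjusted p = 0.000732).

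RGS2 speeds the shut-off of heterotrimeric G proteins that act through phospholipase C. It stood at 27.0 and 29.2 CPM in WT, 9.79 and 11.7 CPM in KO1, and 7.94 and 7.63 CPM in KO2. Every knockout library was far under both WT libraries, and RGS2 fell by 1.62 on the log2 scale (SE 0.15, edgeR adjusted p = 0.000405). RGS5 belongs to the same family and moved the other way. RGS5 had 7.88 and 2.26 CPM in the WT libraries, 28.95 and 14.9 CPM with the first guide and 18.4 and 8.59 CPM with the other. The sets differed in level, but within each set both knockout libraries were above WT, and RGS5 rose by 1.83 ± 0.22 (SE, edgeR adjusted p = 0.00171). RGS5 stood at 2.19 in KO1 and 1.47 in KO2, and the difference between the guides just missed the threshold (edgeR adjusted p = 0.0521).

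Amphiregulin (AREG), a membrane-anchored ligand of EGFR that is shed by proteases, had 208 and 144 CPM in WT. It had 96.3 and 70.1 CPM in KO1 and 83.6 and 86.3 CPM in KO2, with no overlap between the sides. Its log2 fold change was −1.05 ± 0.13 (SE, edgeR adjusted p = 0.00171), with KO1 at −1.08 and KO2 at −1.02. Epiregulin (EREG), a ligand of EGFR and ERBB4 encoded next to AREG on chromosome 4, had 356 and 297 CPM in WT, 190 and 136 CPM in KO1 and 259 and 187 CPM in KO2. EREG fell as well, by 0.79 on the log2 scale (SE 0.11, edgeR adjusted p = 0.00332), and it fell less in KO2, by a tested difference of 0.46 ± 0.13 (SE, adjusted p = 0.0396). Without the HCT116 library of WT the EREG call was lost (adjusted p = 0.0938).

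RNF43 encodes a ubiquitin ligase that removes Frizzled receptors from the membrane, and it is switched on by Wnt signalling. It had 44.5 and 69.4 CPM in WT, 18.8 and 29.5 CPM in KO1 and 27.1 and 35.2 CPM in KO2. Every knockout library was under both WT libraries, with a log2 fold change of −1.04 ± 0.12 (SE, edgeR adjusted p = 0.00171). Keratin 15 (KRT15), a filament protein of basal cells in stratified epithelia, had 18.9 and 32.7 CPM in WT, 45.8 and 61.6 CPM in KO1 and 36.8 and 94.1 CPM in KO2. It rose by 1.19 ± 0.18 on the log2 scale (SE, edgeR adjusted p = 0.00664). ADIRF, named for its part in fat cell differentiation, had 94.6 and 160.9 CPM in WT, 160.7 and 256 CPM in KO1, and 218 and 293 CPM in KO2. The HCT library of KO1 overlapped the HCT116 library of WT, and within each set ADIRF was higher with both guides (0.87 ± 0.12, SE, edgeR adjusted p = 0.00332).

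**Figure D2:**
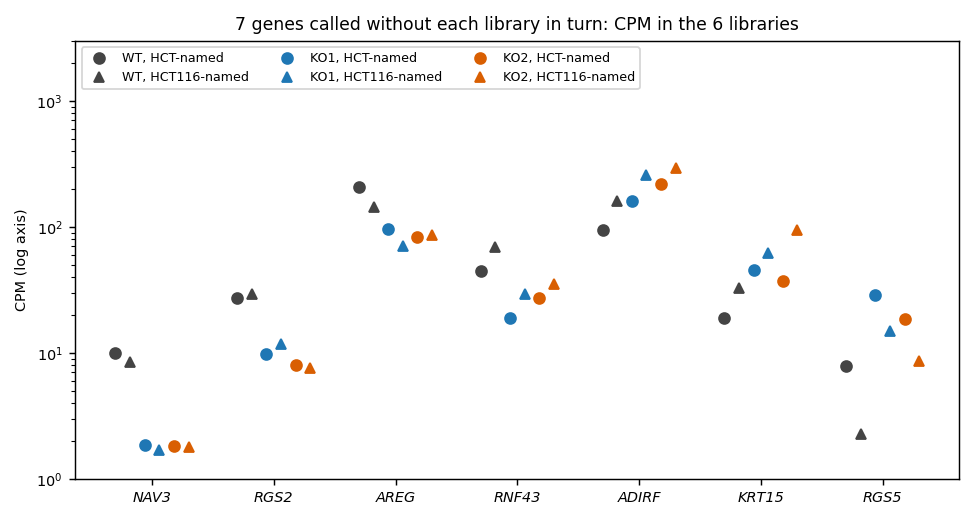
The y axis gives CPM on a log scale in each of the 6 libraries for the 7 genes called whichever library was left out, with circles for the HCT set and triangles for the HCT116 set. NAV3, RGS2, AREG and RNF43 lie lower in all 4 knockout libraries than in both WT libraries, KRT15 and RGS5 lie higher, and ADIRF is higher within each set.

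AREG, EREG and RGS2, which fell with both guides, were picked from the 55 genes that fell, and the windows of the others are not printed. AREG has the cyclic AMP response element TGACGTCA before its start, and EREG and RGS2 have only its core, TGACG. The core was less frequent in the windows of genes that fell than in all windows, by the shares given below. For the 3 genes the 250 bases before the RefSeq start (GRCh38.p14) are printed to show where the matches lie. Capitals mark TGACGTCA in AREG, TGACG in EREG and, since the match in RGS2 lies on the other strand, its complement there.
AREG, chr4:74444886-74445135, plus strand: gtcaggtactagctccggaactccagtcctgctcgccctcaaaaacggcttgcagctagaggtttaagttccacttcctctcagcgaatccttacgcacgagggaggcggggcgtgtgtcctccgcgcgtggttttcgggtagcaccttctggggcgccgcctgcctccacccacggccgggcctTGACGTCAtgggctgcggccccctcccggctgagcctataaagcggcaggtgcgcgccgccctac
EREG, chr4:74364895-74365144, plus strand: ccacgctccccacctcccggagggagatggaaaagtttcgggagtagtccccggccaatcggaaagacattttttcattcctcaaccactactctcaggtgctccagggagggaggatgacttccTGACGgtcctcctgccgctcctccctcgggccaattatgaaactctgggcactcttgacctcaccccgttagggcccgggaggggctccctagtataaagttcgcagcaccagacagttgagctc
RGS2, chr1:192808789-192809038, plus strand: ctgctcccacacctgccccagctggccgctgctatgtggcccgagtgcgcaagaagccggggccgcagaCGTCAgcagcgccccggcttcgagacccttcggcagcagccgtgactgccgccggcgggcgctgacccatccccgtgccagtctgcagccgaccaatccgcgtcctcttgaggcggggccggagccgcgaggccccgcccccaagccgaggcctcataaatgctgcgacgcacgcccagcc
The match lies 65 to 58 bases before the start in AREG, 125 to 121 in EREG and 181 to 177 in RGS2. The shares that follow were searched on both strands in longer windows that also hold bases after the start. TGACGTCA was in 2.74% of the 14803 windows of 10084 tested genes that could be matched by name. Among genes that fell, TGACGTCA was in 4.62% (3 of 65 windows, from 44 of 55 genes). TGACG, which TGACGTCA contains, was in 31.2% of all windows and 21.5% of those of genes that fell, and TGANTCA, the AP-1 motif with any middle base, in 5.36% and 4.62%. Of the 47 genes that rose only 28 were matched, so the check is void for them, and TGACG was in 10 and TGACGTCA in 0 of their 46 windows. A match is a description of letters in the window, not a site of binding.

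The genes that fell without a called guide difference also held some with few reads. ALPK2, an alpha-kinase, had 84 reads over the WT libraries and 21 over all 4 knockout libraries, a depth-scaled ratio of 8.85 (95% exact counting interval 5.44 to 15.04), and TM4SF18, a membrane protein, had 83 against 12 (ratio 15.3, interval 8.31 to 30.8). These intervals cover counting error only, and ALPK2 and TM4SF18 fell under 60 reads and were not tested when 1 or more of the libraries were left out. HOXA3 went from 5.88 and 11.5 CPM in WT to between 2.60 and 3.93 CPM in the knockout libraries (−1.38 ± 0.24, SE). The cofactor LMO4 went from 34.4 and 30.3 CPM to between 12.2 and 19.6 CPM (−1.02 ± 0.14, SE). The zinc finger gene ZNF608 also fell (−1.51 ± 0.25, SE).

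EFNB2, a membrane ligand of Eph receptors, had 89.9 and 50.2 CPM in WT, 55.7 and 23.7 CPM in KO1 and 48.8 and 25.6 CPM in KO2 (−0.90 ± 0.12, SE). TESC, a calcium-binding protein, fell by 0.89 (SE 0.14), and NRARP, a feedback regulator of Notch, by 0.80 (SE 0.15). MALT1, the protease of the CBM complex that activates NF-kB, fell by 0.59 (SE 0.11). RHOBTB3, CHST7 and IGSF9 fell as well, with log2 fold changes between −0.86 and −0.64. The adjusted p by edgeR was at most 0.0359 for the genes named in this and the paragraph before. The calls for EFNB2, LMO4 and TESC were lost without the HCT116 library of WT (adjusted p = 0.0963, 0.100 and 0.380), and that for ZNF608 without the HCT library of WT (0.235). HOXA3 lost its call without the WT library of the HCT116 set or the HCT library of KO1, and NRARP, MALT1, RHOBTB3, CHST7 and IGSF9 each without 3 of the 6 libraries.

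Among the genes that rose without a called guide difference, TRIM29, a protein of basal epithelial cells, had 1.74 and 0.968 CPM in WT, 5.86 and 8.94 CPM in KO1 and 4.44 and 5.57 CPM in KO2 (2.10 ± 0.34, SE, edgeR adjusted p = 0.0137). PLEKHS1, a pleckstrin homology domain protein, had 0.775 and 0.565 CPM in WT and between 2.06 and 3.62 CPM in the knockout libraries (2.14 ± 0.42, SE, adjusted p = 0.0374). Mesothelin (MSLN), a surface glycoprotein, had 87.5 and 104 CPM in WT, 118 and 171 CPM in KO1 and 122 and 172 CPM in KO2 (0.58 ± 0.11, SE, adjusted p = 0.0370). The transporters ABCC3 (0.88 ± 0.14, SE) and SLCO3A1 (1.11 ± 0.23, SE), the Rab27 effector SYTL2 (1.05 ± 0.19, SE) and the Wnt5a receptor ROR1 (1.10 ± 0.21, SE) rose as well.

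SECTM1, a transmembrane and secreted protein, rose by 0.98 ± 0.15 (SE, edgeR adjusted p = 0.00961), and TMEM173, which encodes the DNA-sensing adaptor STING, by 0.76 ± 0.15 (SE, adjusted p = 0.0406). APOBEC3H, a cytidine deaminase, went from 1.74 and 1.78 CPM in WT to between 3.81 and 6.53 CPM (1.46 ± 0.30, SE, adjusted p = 0.0498). NEBL, DGKA, CAMK4, SH3TC1 and CCDC187 made up the rest, at 0.71 to 1.12. For SH3TC1 and ABCC3, both higher in KO2, the difference between the guides just missed the threshold (edgeR adjusted p = 0.052 and 0.0597). Every call among the rises outside the 7 ended when some library was left out. Without the HCT116 library of WT, 9 of the 37 genes were still called. Without the HCT library of KO1 the number was 19, and without either library of KO2 it was 37.

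**Figure D3:**
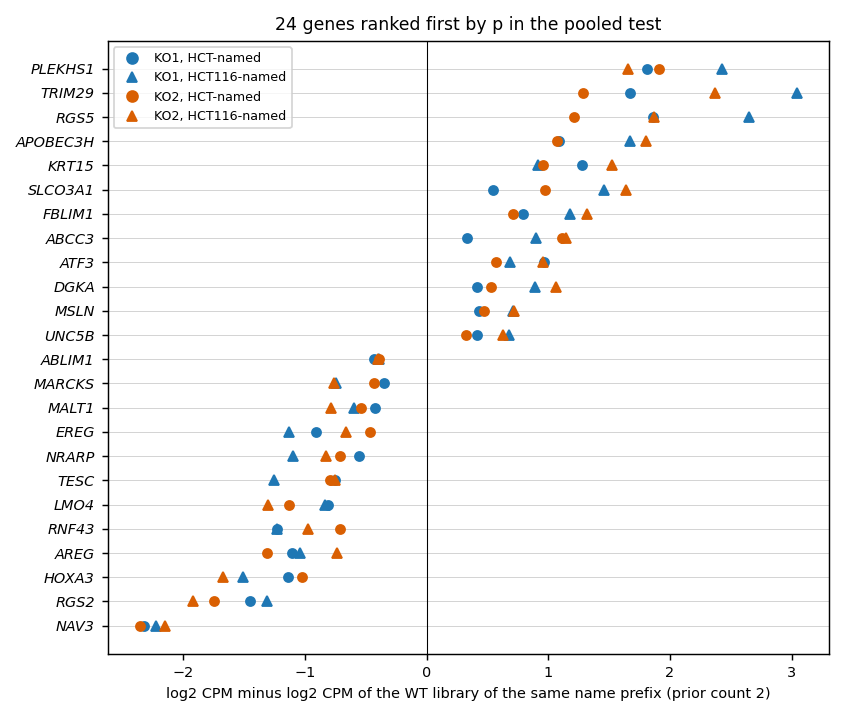
The x axis gives log2 CPM of each knockout library minus that of the WT library of its set (prior count 2) for the 12 genes on each side that ranked first by unadjusted p in the pooled edgeR test, among genes whose log2 CPM averaged 1 or more and whose sides did not overlap. Blue marks KO1, orange KO2, circles the HCT set and triangles the HCT116 set. All 4 ratios share a sign in each gene, since the ranking asked for no overlap.

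In the ranking plot, ATF3, FBLIM1, UNC5B, MARCKS and ABLIM1 passed neither contrast. ATF3, a stress-induced transcription factor, had 13.3 and 11.6 CPM in WT, 26.1 and 18.8 CPM in KO1 and 19.9 and 22.6 CPM in KO2 (adjusted p of the mean contrast 0.0621 by edgeR). ABLIM1, an actin-binding protein, had the narrowest spread of ratios, from −0.43 to −0.39 on the log2 scale, with an adjusted p of 0.121.

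The 65 genes that moved on average and also differed between the guides held unequal shifts. OAS1, a synthetase that is switched on by double-stranded RNA and acts through RNase L, had 12 reads in WT and 325 in the knockout libraries (ratio 12.2, 95% exact counting interval 6.91 to 23.9). It stood at 0.323 and 0.565 CPM in WT, 1.80 and 2.31 CPM in KO1 and 9.14 and 6.39 CPM in KO2. The deaminase APOBEC3G had 36 and 19 reads in the WT libraries, 62 and 53 reads in those of KO1 and 596 and 291 reads in those of KO2. Both were above WT with either guide and higher in KO2 than in KO1. PTAFR, the receptor of platelet-activating factor, was farther from WT in KO1, with 3.10 and 2.66 CPM in WT, 13.2 and 14.5 CPM in KO1 and 6.79 and 4.74 CPM in KO2, and its call was lost without the HCT116 library of WT (adjusted p = 0.0839).

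Keratins of stratified epithelia were among the 65 too. Keratin 13 (KRT13) had 2.46 and 4.52 CPM in WT, 19.4 and 145.3 CPM in KO1 and 9.25 and 18.4 CPM in KO2. Keratin 5 (KRT5) had 9 reads in WT and 229 in the knockout libraries (ratio 11.5, interval 5.95 to 25.5), and it was higher in KO2 (4.75 and 6.26 CPM) than in KO1 (0.666 and 2.85 CPM). KRT13 was called whichever library was left out, and KRT5 not without the HCT116 library of WT (adjusted p = 0.276).

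In other genes of the 65, 1 guide carried the average. DPYSL5, a cytoskeletal protein, had 39.99 and 42.4 CPM in WT and 33.0 and 31.8 CPM in KO2, but 0.399 and 0 CPM in KO1. SLC1A3, a glutamate transporter, had 66.1 and 39.5 CPM in WT and 63.4 and 33.3 CPM in KO1, but 11.1 and 5.98 CPM in KO2. DHRS2, a short-chain dehydrogenase, had 5.43 and 8.63 CPM in WT and 5.72 and 9.86 CPM in KO1, but 58.8 and 74.2 CPM in KO2. For these 3 genes the pooled edgeR test gave unadjusted p of 0.373, 0.249 and 0.0589, although the mean contrast called each of them.

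In some genes the fitted values of the guides had opposite signs against WT. Of 1193 genes that differed between KO2 and KO1 and averaged 1 or more in log2 CPM, this was so for 985 (82.6%), against 45.6% of all 11518 genes at that level, and a wide difference between the guides makes it more likely by itself. The sign alone sets no size, and the guides lay on opposite sides of WT in both sets, the same way round, in 719 (60.3%) against 16.3%. Choosing genes for a difference between the guides in these same libraries raises this share too. Of the 985, 546 had a pooled log2 fold change within 0.2 of 0. The 5 with the widest difference in each direction were MAP6, NRG1, PRKAA2, TCF21 and TUSC3, lower in KO2, and CA9, DSC3, RERG, SEMA3A and ZNF804A, higher in KO2. They were chosen for that difference, so their values are a description.

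MAP6, a microtubule-stabilising protein, had 14.2 and 7.58 CPM in WT and 27.1 and 15.5 CPM in KO1, but 1 read over both KO2 libraries. Its pooled log2 fold change was −0.03 ± 1.59 (SE), while the mean contrast called it lower, a fitted value that rests on that 1 read. NRG1, a growth factor that binds ERBB3 and ERBB4, had 1.29 and 1.37 CPM in WT, 4.79 and 6.63 CPM in KO1 and 0 reads in KO2, at least 63.4-fold higher in KO1 than in KO2 when the group's 0 is replaced by 3 counts. TCF21, a bHLH transcription factor, had 0.905 and 0.403 CPM in WT, 12.6 and 6.94 CPM in KO1 and 0 reads in KO2, at least 111.9-fold apart. The pooled coefficient of TCF21 was positive and the mean contrast negative, so its sign depends on how the guides are averaged. This held for 368 of all tested genes, and for 1 of the 102.

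PRKAA2, a catalytic subunit of AMP-activated kinase, had 23.7 and 7.58 CPM in WT, 22.8 and 10.5 CPM in KO1 and 4 reads in KO2. Its KO1 value was close to WT (0.18 ± 0.23, SE) and under WT in the HCT set, so only its fitted sign was opposite. TUSC3, a subunit of the oligosaccharyltransferase that glycosylates new proteins, had 4.91 and 2.501 CPM in WT, 12.4 and 6.01 CPM in KO1 and 1 read in KO2. The count ratio of KO1 to KO2 was 144.1 (95% exact counting interval 55.9 to 531) for PRKAA2 and 317.7 (56.5 to 12600) for TUSC3.

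SEMA3A, a secreted guidance cue, had 23.3 and 5.49 CPM in WT, 4.39 and 2.47 CPM in KO1 and 157.6 and 93.0 CPM in KO2. The desmosomal cadherin DSC3 had 14.2 and 11.6 CPM in WT, 3.26 and 1.16 CPM in KO1 and 50.4 and 34.99 CPM in KO2. Both were under WT with 1 guide and above it with the other in each set. CA9, a carbonic anhydrase induced by hypoxia, had 2.00 and 1.29 CPM in WT, 0.466 and 0.385 CPM in KO1 and 10.7 and 3.92 CPM in KO2. ZNF804A had 6 reads in KO1 and 179 in KO2, and RERG, a RAS-related GTPase, 2 and 261.

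**Figure D4:**
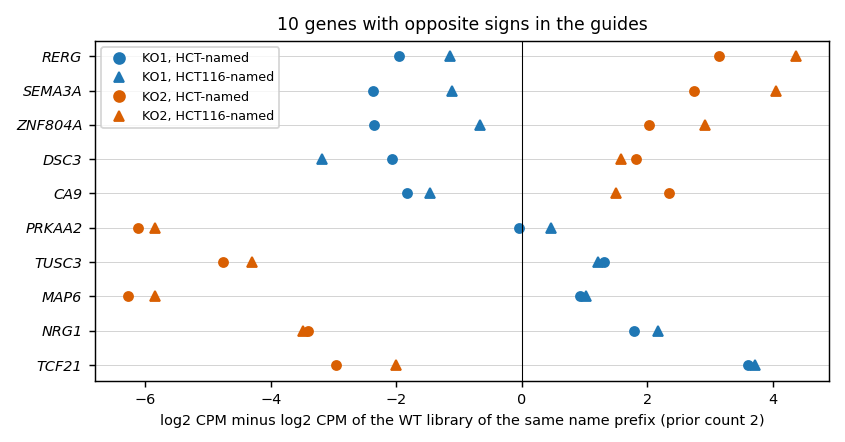
The x axis gives log2 CPM of each knockout library minus that of the WT library of its set (prior count 2) for the 10 genes chosen for the widest difference between guides on opposite sides of WT. Blue marks KO1, orange KO2, circles the HCT set and triangles the HCT116 set. The upper 5 genes lie left of 0 in KO1 and right in KO2, and the lower 5 lie far left in KO2, with PRKAA2 in the HCT library of KO1 close to 0.

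Lists of related genes were described by counts and medians beside those of all tested genes, where the median pooled log2 fold change was −0.004 and 49.2% were positive. The lists were chosen with earlier results of these data known, so their counts beside the shares of all tested genes are a description. The pooled test called 0 members of every list. Over all tested genes the mean contrast called 0.378% higher and 0.443% lower, and KO2 against KO1 called 4.43% higher and 5.64% lower. Of 38 components of the PI3K, Akt and mTOR pathway, the mean contrast called 0 higher and 1 lower. The 1 was PIK3R1, the regulatory subunit of PI3K, which had 39.5 and 14.0 CPM in WT, 31.9 and 13.6 CPM in KO1 and 15.3 and 6.19 CPM in KO2, and which was lower in KO2 than in KO1. Its call was lost without either WT library or the HCT library of KO1 (highest adjusted p = 0.505). The list's median was −0.05, with 14 of 38 positive.

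Other components of the pathway did not pass either contrast. SGK1, a kinase activated by mTORC2, stood at 0.76 ± 0.22 (log2 fold change of the mean contrast and SE, edgeR adjusted p = 0.184). EIF4EBP1, the translation repressor that mTORC1 phosphorylates, stood at −0.41 ± 0.12 (adjusted p = 0.201), and MLST8 and RPTOR, subunits of mTOR complexes, at −0.32 and −0.39. MTOR stood at −0.01 ± 0.11 and AKT1 at −0.10 ± 0.11. Of 15 stress brakes on mTORC1, 1 fell, PRKAA2, with the KO2 reads given above, and the sestrin SESN1 stood at 0.62 ± 0.15 (adjusted p = 0.0989).

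Of 18 ERBB receptors, ligands and adaptors, 2 fell, AREG and EREG, against 0.443% of all tested genes, and 0 rose. The receptors did not pass, with EGFR at 0.22 ± 0.23, ERBB2 at 0.00 ± 0.12 and ERBB3 at −0.21 ± 0.17 (SE). The ligand HBEGF stood at −0.02 ± 0.20. Of 17 Wnt targets, DKK4, a secreted Wnt antagonist, rose from 4 reads in WT to 326 in the knockout libraries (ratio 36.8, 95% exact counting interval 14.3 to 136). That ratio rests mainly on KO2, with 200 and 114 reads, while the KO1 libraries had 7 and 5 and the WT libraries 3 and 1. RNF43 and NOTUM, a carboxylesterase that inactivates Wnt ligands, fell. DKK4 and NOTUM differed between the guides, both farther from WT in KO2, and the NOTUM call was lost without the WT library of the HCT116 set or the HCT library of KO1. EPHB2, a crypt receptor tyrosine kinase, stood at −0.49 ± 0.12 in the mean contrast (edgeR adjusted p = 0.0973).

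Interferon-stimulated genes had the highest pooled median of the lists plotted, 0.58, with 33 of 34 positive, and the guides were unequal. The median was 0.01 in KO1 and 1.08 in KO2, and KO2 exceeded KO1 in 24 members, against 4.43% of all tested genes, and was exceeded in 0, against 5.64%. The mean contrast called 6 higher (0.378% of all tested genes) and 0 lower: OAS1, PARP10, OASL, IFIT1, IFI6 and IFI35, all 6 among the genes that differed between the guides. OAS1 and PARP10 were called whichever library was left out. The other 4 were not called without the HCT116 library of WT, and the highest adjusted p over all libraries left out was 0.380 for OASL, 0.164 for IFIT1, 0.642 for IFI6 and 0.298 for IFI35. IFIT1, which binds foreign RNA, had 9.63 and 7.58 CPM in WT, 9.39 and 9.02 CPM in KO1 and 42.5 and 26.5 CPM in KO2. IRF7 was above WT in both guides without passing either contrast, at 0.75 in KO1 and 0.81 in KO2.

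Targets of p53 had a pooled median of 0.27 with 30 of 31 positive, and the mean contrast called 0 in either direction. The medians were 0.35 in KO1 and 0.09 in KO2. By library against the WT library of its set they were 0.215 (HCT) and 0.47 (HCT116) for KO1, and −0.11 (HCT) and 0.29 (HCT116) for KO2, so the sign was not shared by all 4. In the pooled edgeR test 7 members had an unadjusted p under 0.05, all of them positive, against 1.54% of all tested genes in that direction. In the mean contrast RPS27L stood at 0.44 ± 0.12 (SE, edgeR adjusted p = 0.135). MDM2, the ligase that degrades p53, stood at 0.38 ± 0.13 (adjusted p = 0.248), and the death receptor FAS at 0.64 ± 0.21 (adjusted p = 0.246). CDKN1A, the cell cycle inhibitor p21, stood at 0.90 in KO1 and 0.06 in KO2, a difference that passed the test (adjusted p = 0.00732).

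Stratified keratins and desmosome genes had a pooled median of 0.42 with 17 of 20 positive. By library the median ran from −0.02 (KO2, HCT set) to 0.78 (KO1, HCT116 set). Of the 20, 4 rose, namely KRT15, TRIM29, KRT5 and KRT13, against 0.378% of all tested genes, and 0 fell. The list was chosen with earlier results of these data known, so this count is a description and no support. Keratin 16 (KRT16) stood at 1.24 ± 0.43 in the mean contrast (edgeR adjusted p = 0.277). KO2 was above KO1 in 3 members and below it in 7, against 4.43% and 5.64% of all tested genes. In the list of cholesterol and fatty acid synthesis 6 of 33 genes were positive, with a median of −0.16. MVD, which makes the isoprenoid precursor isopentenyl diphosphate, was the 1 that fell (−0.59 ± 0.11, SE, adjusted p = 0.0338), with 0 that rose. MVD was lower in KO2 than in KO1, and its call was lost without the HCT116 library of WT or either library of KO1. The list's median was −0.03 without the HCT library of WT. Of 34 genes of G2 and mitosis 3 were positive, with a median of −0.13, and 0 passed. The 53 ribosomal protein genes had a median of −0.05, and 0 passed.

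**Figure D5:**
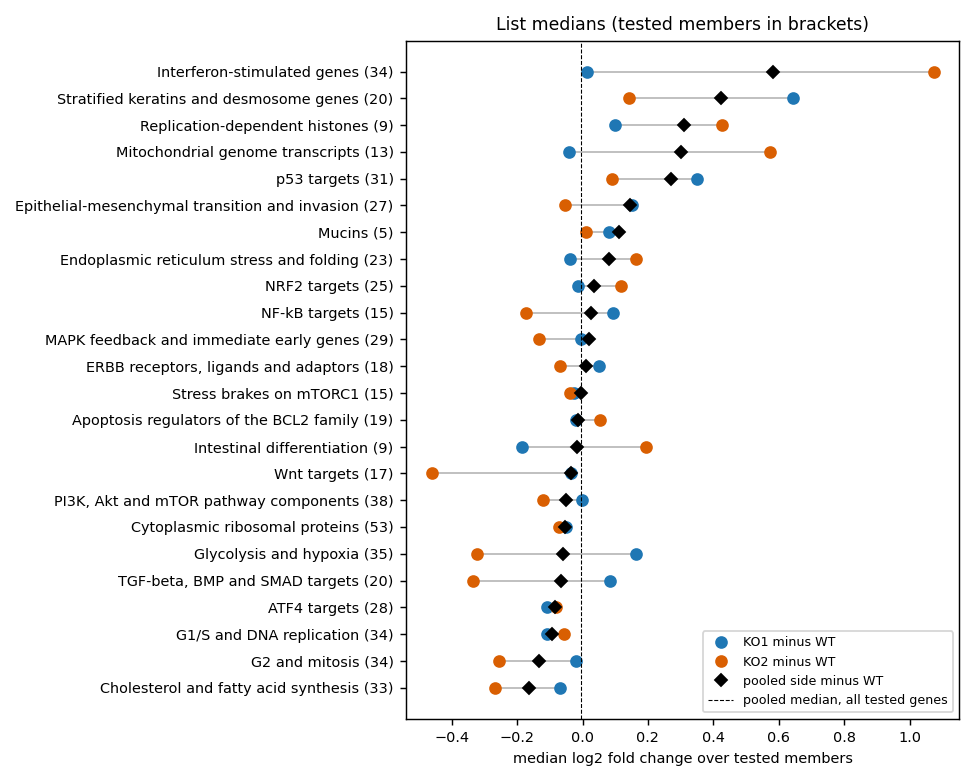
Each row is a gene list with its number of tested members in brackets, and the x axis gives the median log2 fold change over those members for KO1 minus WT (blue), KO2 minus WT (orange) and the pooled side minus WT (black). The dashed line is the pooled median of all tested genes. Interferon-stimulated genes, mitochondrial transcripts and Wnt targets have medians near 0 in KO1 and farther from 0 in KO2.

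All 13 protein-coding transcripts of the mitochondrial genome were positive on the pooled log2 scale (median 0.30), and 0 passed either contrast with WT, while 5 were higher in KO2 than in KO1. As a share of all counts they made up 5.34% and 4.84% in the WT libraries, 5.94% and 4.20% in those of KO1 and 8.90% and 6.95% in those of KO2. The knockout side averaged 6.497% ± 1.96 (SD, n = 4) and WT 5.09% ± 0.352 (SD, n = 2). The difference of 1.41 percentage points gave p = 0.467 in a two-sided exact permutation test over 15 arrangements, which cannot go below 0.0667, and the HCT116 library of KO1 lay under both WT libraries. The HCT library was above the HCT116 library in every group. Within the sets KO2 was above WT by 3.56 points (HCT) and 2.12 points (HCT116), while KO1 differed by 0.602 and −0.637. Rearranging only within sets, as added after seeing the data, gave an exact permutation p of 0.444, with 0.111 as the smallest that 9 arrangements allow. Leaving out the HCT library of KO2 gave a difference of 0.611, and leaving out the HCT116 library of KO1 gave 2.18.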

How the data were processed

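Poly(A) RNA of 6 libraries was sequenced from NEBNext Ultra RNA kit libraries, per the labels' protocols. Unnormalized read counts of each gene symbol were deposited by the authors, per the file headers. The build hg18 and the tools DESeq2, STAR and HTSeq 0.6.0 appear in the submitters' processing notes, with no role or order. For the counting no strand setting was found in the labels or headers, so overlapping or antisense genes, and near-identical copies such as APOBEC3 paralogs, are uncertain. A further 40 deposited columns, among them the authors' own fold changes and p-values, stayed out of this comparison.

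Both tables hold the same WT counts and were joined on gene symbol. Genes with 60 or more reads over the 6 libraries were tested in edgeR 4.0.16 (R 4.3.3) with TMM scaling, glmQLFit and glmQLFTest, and Benjamini-Hochberg adjustment over all 12429 genes at 0.05. The pooled design has side and name prefix as terms (3 residual degrees of freedom, biological coefficient of variation 0.204). The mean contrast and KO2 against KO1 use group and prefix (2 degrees of freedom, 0.118). The pooled coefficient weights the guides by their counts and the mean contrast averages their logs. CPM use TMM-scaled totals, and SE was taken as |log2 fold change| over the root of F, too small where a group has few reads. Alternatives were DESeq2 1.42.0, limma-voom (limma 3.58.1), RLE scaling, filterByExpr, no filter, no block and each library left out.

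Columns carry the prefix but no replicate number. Differences between the sets correlated across genes at 0.882 (WT and KO1), 0.834 (WT and KO2) and 0.798 (KO1 and KO2), so the prefix was taken as pairing the libraries. Within WT, KO1 and KO2 chi-square per degree of freedom was 122, 105 and 81.5, so in no group was 1 library a copy of the other. Libraries of different groups were not compared in this way. The fits were tested on simulated data.

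Members and gene lists were chosen with earlier results of these data known. The rule for named genes takes MUC3A, the 12 highest and 12 lowest ranks, up to 2 genes per list and 5 genes per direction with opposite guides. Since the pooled test called fewer than 10 genes, ranks are by unadjusted p among genes with mean log2 CPM 1 or more and no overlap between sides. Genes of the mean contrast and other list members were named after their values were seen, and not every called gene is reported here. Guides were located in GENCODE transcripts (GRCh38), and promoters taken from RefSeq, both on another build than the counts.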

Additional observations from a re-analysis of the deposited data

Results flagged for a closer look

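The genes below differed between the guides by the edgeR test of KO2 against KO1, at an adjusted p of 0.05, among the genes named by rule. KO2 minus KO1 is given as a fitted log2 fold change. In the interferon-stimulated list it was 1.92 for OAS1 and 0.998 for IFI35. For the EGFR ligand EREG it was 0.46, and for MVD of the mevalonate pathway −0.56. Among genes on opposite sides of WT it was 4.03 for CA9, 4.28 for DSC3, 5.25 for SEMA3A and 4.57 for ZNF804A. The fitted values of −9.19 for MAP6, −9.39 for NRG1, −7.18 for PRKAA2, −10.3 for TCF21, −7.99 for TUSC3 and 6.65 for RERG depend on the prior count, because 1 guide had 0 to 4 reads. The 10 genes on opposite sides were chosen for this difference.

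Of the genes listed for KO2 and WT alone, 429 in number, 1 had 60 reads or more. BMP5, a bone morphogenetic protein, had 179 reads over the KO2 libraries, 112 in the HCT and 67 in the HCT116 library, and 0 reads in WT. It lies outside the join and entered no test.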

How the results depend on the processing

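The pooled count of 0 genes by edgeR was also 0 with RLE scaling, limma-voom, filterByExpr, no filter and each library left out, and 0 without the replicate block (69 at an unadjusted p under 0.05), against 20 with DESeq2 and 102 with a mean per group. KO2 against KO1 went from 1252 genes to 0 without the replicate block and to between 348 (HCT library of KO1 left out) and 3207 (HCT116 library of KO2 left out). The alternatives of the mean contrast were chosen after seeing the data. It went from 102 genes to 0 without the replicate block, 154 with DESeq2 and 241 with no filter. Leaving out a library gave 34 to 1170 genes. The WT libraries gave 165 (HCT left out, 111 higher and 54 lower) and 34 (HCT116 left out), and the KO2 libraries 1170 and 887. A group left with 1 library takes its spread from the other groups, and the cause was not tested. The pooled log2 fold change of MUC3A ranged, with 1 library left out, from −0.345 (HCT116 of WT) to 0.0827 (HCT of WT), with 0.0431 for HCT of KO2. It was −0.398 over the HCT-named and 0.0375 over the HCT116-named libraries alone. The mitochondrial difference ranged from 0.611 to 2.18 percentage points. The median pooled log2 fold change of all genes was −0.004 in the main fit and −0.011 with RLE scaling. Across all alternatives it ran from −0.023 (limma-voom) to 0.025 (HCT library of WT left out). Of 553 tested values of named genes under alternatives, 517 kept sign and side of the threshold, 34 passed it, under DESeq2 or the mean per group, and 2 reversed. Of 86 values over 1 set, which have no test, 85 kept their sign. The 10 genes on opposite sides of WT lost their KO2 against KO1 call without the replicate block. Levels under 3 reads, up to 0.242 CPM, cannot be compared.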

Other observations

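Of 9 replication-dependent histone genes 8 were positive, with a median pooled log2 fold change of 0.31 (0.10 in KO1 and 0.43 in KO2), and 0 passed either contrast with WT or the test of KO2 against KO1. Of 25 NRF2 targets, ABCC3 rose and 0 fell, with a median pooled log2 fold change of 0.04. In the list of epithelial-mesenchymal transition, 0 of 27 rose and THBS1, an adhesive matrix protein, fell. THBS1 had 27.8 and 12.1 CPM in WT, 31.0 and 13.3 CPM in KO1 and 8.10 and 2.96 CPM in KO2. Its call was lost without either WT library or the HCT library of KO1. In the same list ITGB4, the integrin of hemidesmosomes, stood at 0.72 ± 0.18 (log2 fold change of the mean contrast and SE, edgeR adjusted p = 0.0981). Of 9 intestinal differentiation genes 0 passed. HNF4A, a transcription factor of intestinal epithelium, had 6.40 and 5.16 CPM in WT, 14.4 and 10.2 CPM in KO1 and 9.66 and 9.07 CPM in KO2 (0.89 ± 0.21, edgeR adjusted p = 0.0779), with all 4 knockout libraries above WT. Among 5 mucin genes, MUC13 had 0.711 and 0.403 CPM in WT and between 0.962 and 5.16 CPM in the knockout libraries (edgeR adjusted p = 0.168), and 0 passed.

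The transcription factor genes SOX4, MSX2 and TBX3 passed the mean contrast and also differed between the guides. SOX4 had 384 and 254 CPM in WT, 309 and 156 CPM in KO1 and 159 and 93.1 CPM in KO2. MSX2 had 34.8 and 33.8 CPM in WT, 41.7 and 54.5 CPM in KO1 and 94.5 and 74.3 CPM in KO2. TBX3 had 15.1 and 15.4 CPM in WT, 32.2 and 41.9 CPM in KO1 and 19.3 and 23.2 CPM in KO2. MSX2 lost its call without the HCT116 library of WT (edgeR adjusted p = 0.100), and TBX3 without that library or the HCT library of KO1 (highest adjusted p = 0.627). These 3 genes were chosen after their values were seen.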
